A study of Bos taurus with 129 samples.

Results

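The mitochondrial ribosomal proteins are the nuclear-encoded protein subunits of the ribosome that works inside mitochondria. Their genes were taken here as all rows named MRPL or MRPS followed by a number, with or without 1 further letter, which gave 78 of the 35158 gene names in the second experiment (E2) of a study of early pregnancy in dairy cows. In the first experiment (E1) the same symbols were found for 76 genes on 77 of 24616 rows, since MRPL58 and MRPS15 were absent from its table and MRPL33 stood on 2 rows. Of the 78, 49 carried a large subunit name (MRPL) and 29 a small subunit name (MRPS). MRPL48 was followed through every comparison because the study took a single nucleotide polymorphism in it as a candidate. This variant passed quality control in a separate cohort of cows but was not among those the study associated with fertility traits. The choice of candidates rested on published fertility associations and on differences between E2 conceptuses. The values of MRPL48 in those conceptuses are therefore a description and not independent evidence. E1 used other libraries.

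RNA was sequenced at day 16 of pregnancy from conceptuses (the embryo with its extraembryonic membranes), endometrium (the uterine lining), corpus luteum (the ovarian gland that secretes progesterone) and peripheral blood mononuclear cells (PBMC). N stands for a normal pregnancy, EM for embryo mortality and NP for non-pregnant, and an NP cow has no conceptus. The E2 cows that gave an N or EM conceptus were lactating multiparous Holsteins, synchronised with Ovsynch, inseminated at a fixed time with semen of a single high-fertility sire and flushed at day 16. The sources used here do not describe the NP cows further. In E2 an N conceptus was translucent and elongated, and an EM conceptus was pink, red or opaque, was restricted in elongation, or both. The sources used here do not give how E1 conceptuses were classed, nor which libraries share a cow. In E2 endometrium the column name S77 stands in both the EM and the N table, so these columns were used by their group and without a sample number. Conceptuses numbered 9 N and 6 EM in E2, and 8 N and 4 EM in E1. Endometrium numbered 9 N, 6 EM and 7 NP in E2, and 8 N, 4 EM and 7 NP in E1. Corpus luteum was taken from E2 alone, with 9 N, 6 EM and 7 NP. PBMC numbered 9 N, 6 EM and 7 NP in E2, and 7 N, 3 EM and 5 NP in E1.

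The mitochondrial ribosome translates the few mRNAs encoded by mitochondrial DNA, all of which specify subunits of the respiratory chain and ATP synthase. Its RNA comes from mitochondrial DNA, while all of its proteins are made in the cytosol and imported, so the mitochondrial and nuclear genomes must both supply parts. Many of these proteins have a counterpart in bacterial ribosomes and the others are specific to mitochondria. MRPL48 belongs to the mitochondria-specific proteins and lies in the central protuberance, a feature of the large subunit that faces the small subunit, together with MRPL38, MRPL40, MRPL46 and MRPL58.

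By these roles the 78 genes comprised 30 large subunit proteins with a bacterial counterpart, 21 large subunit proteins specific to mitochondria, 15 small subunit proteins with a bacterial counterpart and 11 small subunit proteins specific to mitochondria. The remaining gene, MRPS36, is named for the ribosome but encodes a component of the alpha-ketoglutarate dehydrogenase complex. MRPS30 and MRPS18A carry small subunit names but encode large subunit proteins and were counted there. MRPS28 was counted among the mitochondria-specific proteins, although some nomenclatures give it a bacterial counterpart. Another 24 rows of E2 were annotated as copies of 19 members, and reads could be shared with them. MRPL48 had no such row. In the UMD3.1 assembly MRPL48 (ENSBTAG00000008347) lies at chr15:54065466-54120351 and its exons cover 960 bases.

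Total counts per library were between 10532188 and 24482117 in E2. In E1 they were between 106785 and 14932407, and the 2 lowest belonged to EM conceptuses (S5 at 106785 and S4 next), so E1 conceptus results are also given without these libraries. NP PBMC library S47 of E1 also stood apart, with 72.1% of counts from genes encoded by mitochondrial DNA. The tissue labels were checked against N libraries of E2, where 14 of 15 trophectoderm markers were higher in conceptus than in endometrium, all 11 stroma markers were higher in endometrium than in conceptus, all 7 luteal markers higher in corpus luteum and all 23 leukocyte markers higher in PBMC. The mitochondrial DNA-encoded genes took 6.78 to 28.04% of counts in EM conceptuses of E2 and 1.17 to 5.80% in N conceptuses, with no overlap. Conceptus libraries were also apart in cell type markers. Of 23 leukocyte markers tested in E2, 22 were higher in EM conceptuses, with a summed level of 429 to 3101 CPM (counts scaled to a common library size, here by the trimmed mean of M values, TMM) in EM and 14.4 to 88.2 CPM in N. Of 12 endometrial epithelium markers, 11 were higher, with a summed level of 4978 to 9951 CPM in EM and 32.8 to 1742 CPM in N. Of the 13 markers on that list, 1, PAEP, was at 0 counts in every EM conceptus. Of 9 endometrial stroma markers, 5 were higher, with a summed level of 85.2 to 1306 CPM in EM and 17.7 to 91.3 CPM in N. Of 15 trophectoderm markers, 13 were lower, with a summed level of 1052 to 17100 CPM in EM and 23615 to 61252 CPM in N. These libraries are bulk RNA, in which fewer cells of a type and less RNA per cell cannot be told apart.

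Genes of the mitochondrial ribosome were lower as a family in EM conceptuses than in N conceptuses. In E2, 60 of the 78 genes were lower in EM, none was higher (at an unadjusted p under 0.05, MRPL19 alone) and 18 did not pass the test (edgeR quasi-likelihood test, Benjamini-Hochberg adjusted p under 0.05). Of all 15642 genes tested, 31.8% were lower and 35.3% were higher by the same rule. The median log2 difference of the family was -0.91, with quartiles of -1.21 and -0.61, against 0.07 for all genes. Every one of the 78 genes passed the filter on low counts. The summed level of the family was 3108 to 6740 CPM in the N conceptuses (median 4172) and 1401 to 3133 CPM in the EM conceptuses (median 2521), a slight overlap.

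**Figure D1:**
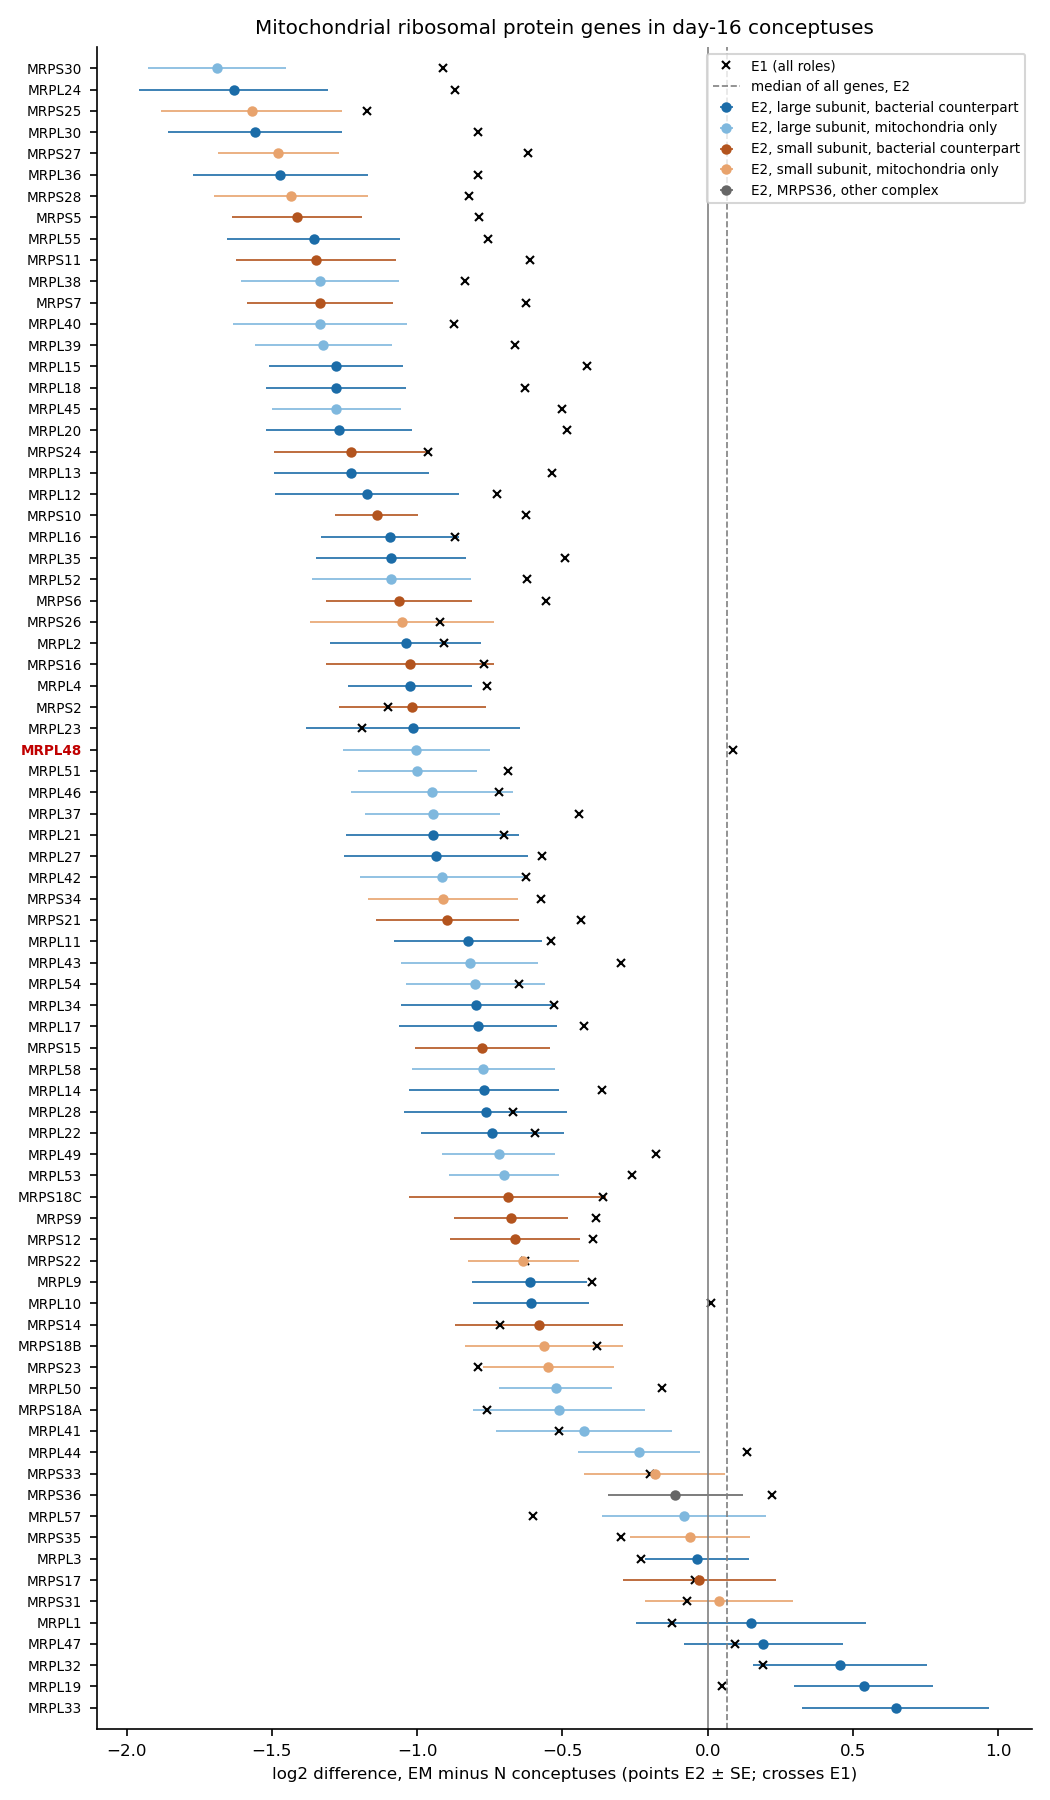
Log2 difference between EM and N conceptuses for each of the 78 genes in E2 (points, with SE as bars, coloured by role) and for the genes tested in E1 (crosses); the dashed line is the E2 median of all genes, 0.07. In E2, 72 genes lie below 0, from -1.69 for MRPS30 to 0.65 for MRPL33, and MRPL48 lies at -1.002.

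MRPL48 was lower in EM conceptuses of E2. Its level was 16.5 CPM in the lowest N conceptus, 20.8 CPM at the N median and 41.4 CPM in the highest (23.9 ± 7.95, SD, n = 9). In EM conceptuses it was 6.71, 12.4 and 16.1 CPM at the lowest, the median and the highest (11.9 ± 3.56, SD, n = 6). With TMM scaling all EM values were below all N values, although the highest EM library (S55) and the lowest N library (S50) were close. With total counts in place of scaling factors the groups overlapped, at 8.43 to 18.4 CPM in EM and 16.4 to 31.5 CPM in N. S55 also had the highest trophectoderm marker sum among EM conceptuses, and S50 the highest endometrial epithelium sum among N conceptuses. The part of these in the result was not tested. The log2 difference of MRPL48 was -1.002 (SE 0.25, adjusted p = 0.00232), close to the median of its family and 33rd of 78 by size. Groups of libraries did not overlap for 21 of the 78 genes, beside 31.3% of all genes tested.

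**Figure D2:**
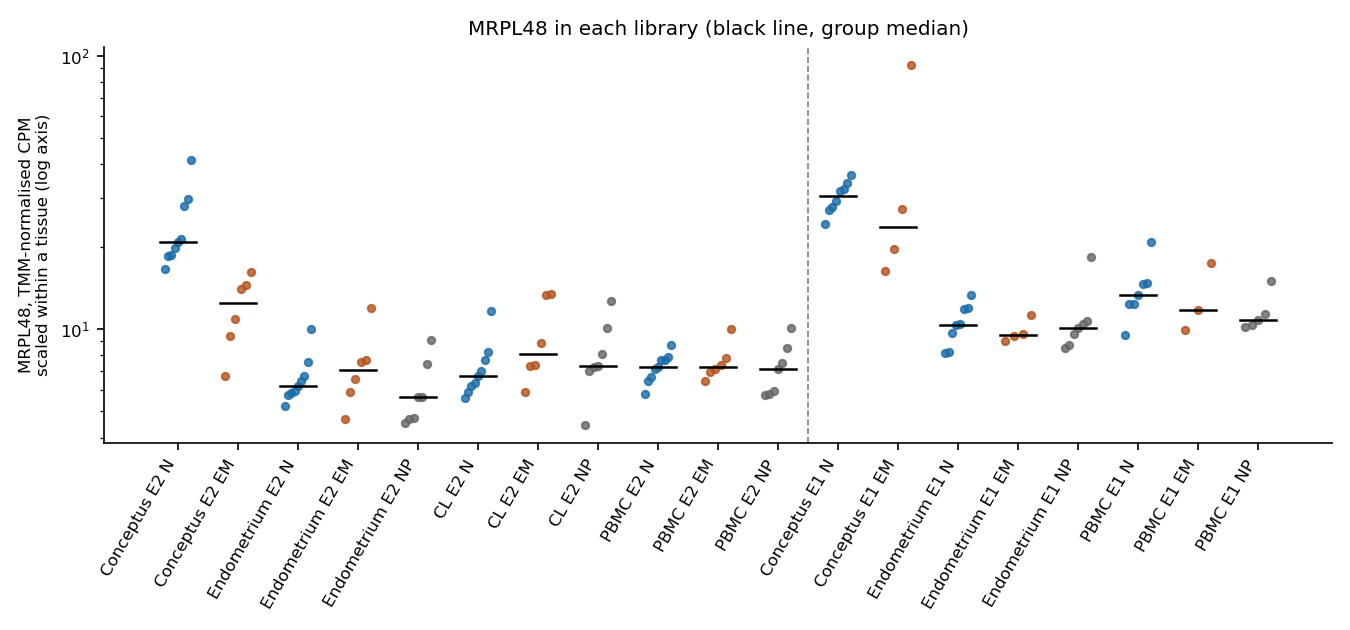
Level of MRPL48 in each library (points; TMM-normalised CPM scaled within a tissue, log axis), by tissue, experiment and group, with the group median as a black line. On this scale E2 conceptuses separate into N (16.5 to 41.4 CPM) and EM (6.71 to 16.1 CPM). In E1 a single EM conceptus stands at 92.3 CPM.

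The smallest p-values in the family belonged to proteins of both subunits. MRPS10, a small subunit protein with a bacterial counterpart, was at 88.9, 110.9 and 121.9 CPM in the lowest, median and highest N conceptus and at 40.7, 48.2 and 66.1 CPM in EM. It also varied least among N conceptuses, with a coefficient of variation of 9.23%, and its log2 difference was -1.14 (SE 0.14, adjusted p = 8.97e-06). MRPS30, a mitochondria-specific protein of the large subunit, was at 46.2, 59.9 and 72.6 CPM in N and at 9.73, 16.4 and 31.2 CPM in EM. Its log2 difference of -1.69 (SE 0.24, adjusted p = 2.13e-05) was the most negative of the family. Neither gene overlapped between groups.

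MRPS27 and MRPS5 followed, the first specific to mitochondria and the second conserved from bacteria, both in the small subunit. MRPS27 was at 59.1, 86.8 and 110 CPM in N and at 19.5, 30.5 and 49.4 CPM in EM (log2 difference -1.48, SE 0.21). MRPS5 was at 47.5, 75.5 and 92.9 CPM in N and at 21.1, 23.7 and 43.4 CPM in EM (log2 difference -1.41, SE 0.22). Both separated the groups without overlap. MRPL45 and MRPL39, 2 proteins near the exit of the tunnel through which the new chain leaves the large subunit, also fell. MRPL45 was at 52.9, 90.9 and 116.5 CPM in N and at 23.5, 32.02 and 56.8 CPM in EM, with an overlap of its groups, and differed by -1.28 on the log2 scale (SE 0.22). MRPL39 was at 38.2, 46.8 and 67.3 CPM in N and at 11.4, 17.97 and 32.9 CPM in EM, with no overlap, and differed by -1.32 (SE 0.24).

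A further 3 genes had the most negative log2 differences beside MRPS30, each with no overlap between groups. MRPL24, another tunnel exit protein, was at 50.6, 79.7 and 145 CPM in N and at 11.9, 22.4 and 49.6 CPM in EM (log2 difference -1.63, SE 0.32). MRPS25, specific to the mitochondrial small subunit, was at 24, 32.9 and 66.04 CPM in N and at 5.89, 12.1 and 20.1 CPM in EM (log2 difference -1.57, SE 0.31). MRPL30, a large subunit protein with a bacterial counterpart, was at 28.7, 35.2 and 82.9 CPM in N and at 8.50, 11.9 and 23.1 CPM in EM (log2 difference -1.56, SE 0.30).

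In E2 all 5 central protuberance genes named above were lower in EM than in N, and their median log2 difference was -1.002. MRPL38 was at 47.7, 78.1 and 122.2 CPM in N and at 19.02, 32.9 and 51.02 CPM in EM (log2 difference -1.34, SE 0.27, adjusted p = 0.000476). MRPL40 was at 29.7, 40.5 and 78.7 CPM in N and at 8.42, 17.5 and 28.6 CPM in EM (-1.33, SE 0.30, adjusted p = 0.00101). It separated the groups as MRPL48 did, while MRPL38 overlapped. MRPL46 was at 20.5, 29.8 and 66.8 CPM in N and at 9.20, 18.3 and 23.8 CPM in EM (-0.95, SE 0.28, adjusted p = 0.00685). MRPL58, which can also release stalled chains by hydrolysing peptidyl-tRNA, was at 35.2, 58.95 and 92.2 CPM in N and at 15.9, 36.2 and 39.7 CPM in EM (-0.77, SE 0.25, adjusted p = 0.011). The last pair overlapped between groups.

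The direction was shared by the other roles. Of the large subunit proteins with a bacterial counterpart 24 of 30 were lower (median log2 difference -0.94), and of those specific to mitochondria 17 of 21 (median -0.91). Of the small subunit proteins with a bacterial counterpart 12 of 15 were lower (median -1.02), and of those specific to mitochondria 7 of 11 (median -0.63). The stalk proteins MRPL10, MRPL11 and MRPL12, which form the landing site of translation factors, were lower in 3 of 3 cases, and 5 of 6 tunnel exit proteins were lower. Differences between these roles were not tested. Genes with an annotated copy were lower in 14 of 19 cases (median -0.79), and those without in 46 of 59 (median -0.95).

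The 20 members with the least negative differences had a median N level of 27.99 CPM, and 3 of them were called, while the median N level in the other members, taken in 3 groups by size, was between 52.1 and 58.7 CPM. MRPL33, MRPL19 and MRPL32, all large subunit proteins with a bacterial counterpart, had the most positive values. MRPL33 was at 13.1, 17.97 and 33.7 CPM in N and at 9.20, 33.4 and 56.5 CPM in EM (log2 difference 0.65, SE 0.32, adjusted p = 0.0855). MRPL19 was at 17.2, 30.2 and 37.3 CPM in N and at 18.6, 38.8 and 60.7 CPM in EM (0.54, SE 0.24, adjusted p = 0.0571). Both overlapped widely between groups. MRPL33 is also among the members with annotated copies, and the part of shared reads was not tested. MRPL19 passed the test as higher under each of the 5 other settings tried on all libraries (RLE factors, total counts, no filter, 10 counts in every library and DESeq2), with adjusted p between 0.00445 and 0.0496. MRPL33 passed under total counts, 10 counts in every library and DESeq2, with adjusted p between 0.0133 and 0.0464. MRPL32 differed by 0.46 (adjusted p = 0.188) and passed as higher under total counts and with 10 counts in every library.

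The number of lower genes depended on scaling, which also moved the median of all genes. With total counts in place of scaling factors the median of all genes rose to 0.45, 33 members were lower and 3 higher, beside 21.8% and 43.4% of all genes, and the family median lay 0.95 below that of all genes, compared with 0.98 as first given. MRPL48 was still called (log2 difference -0.59, adjusted p = 0.025). Leaving out 1 library at a time gave between 42 and 62 lower members, with the fewest without EM S49, beside 25.6 to 31.9% of all genes, and MRPL48 was called each time. Without EM S55 there were 61 and without N S50 there were 58.

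**Figure D3:**
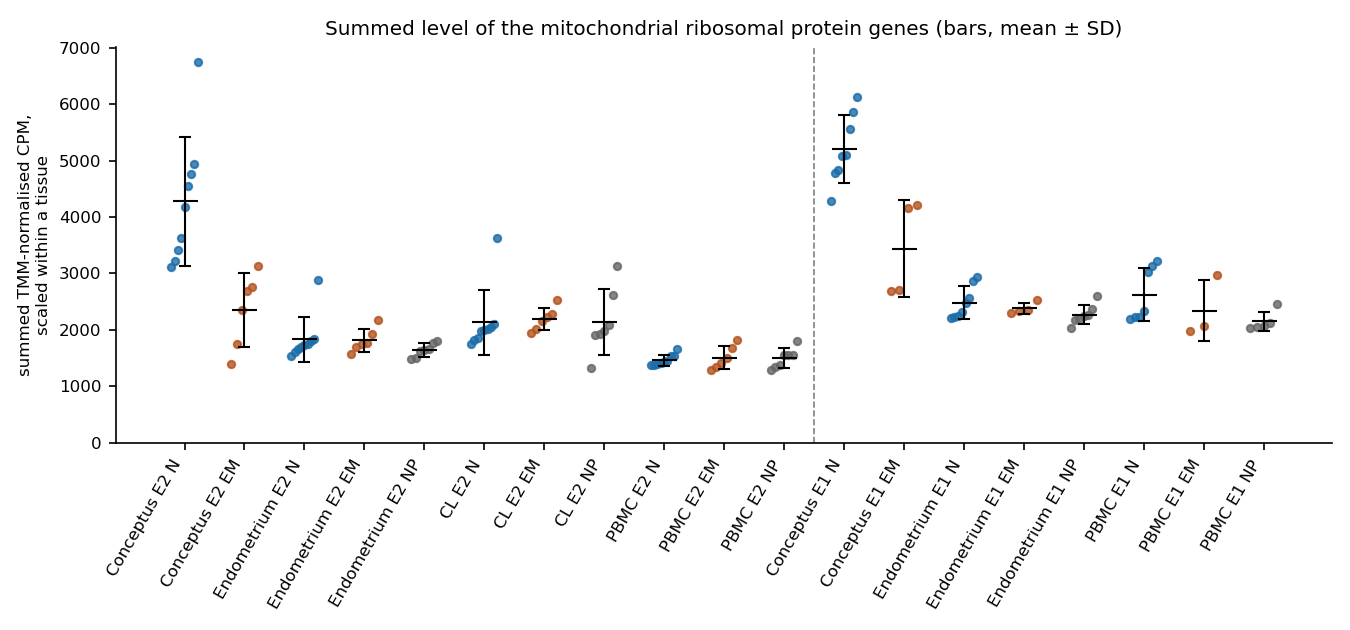
Summed TMM-normalised CPM of the family in each library (points; scaled within a tissue), with the group mean and SD as bars. EM conceptuses of E2 lie between 1401 and 3133 CPM and N conceptuses between 3108 and 6740 CPM, and in the maternal tissues the groups overlap.

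MRPL48 moved among E2 conceptuses with genes of both subunits. Over the 15 libraries its log2(CPM + 1) correlated best with MRPL40 and MRPL46 (Pearson r = 0.98 each) and then with MRPL16, MRPL55 and MRPS22 (0.97 each). These libraries include both groups, which differ in level, but within N alone the same 5 correlations were 0.94, 0.95, 0.90, 0.94 and 0.96, and within EM 0.97, 0.99, 0.98, 0.93 and 0.93, in the order named. MRPL1 (-0.12), MRPS35 (-0.19) and MRPL19 (-0.23) correlated least over the 15. Within N these were -0.23, -0.44 and -0.012, and within EM 0.93, 0.095 and 0.43, so their order over the 15 did not hold within groups. The median correlation of MRPL48 with the other members was 0.93 over the 15 libraries (rank 3 of 78), 0.87 within N (rank 38) and 0.90 within EM (rank 1), and the median over all pairs of members was 0.85, 0.78 and 0.81. The libraries share depth and composition, so these are descriptions only.

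In E1 the family was lower in EM conceptuses as well, but MRPL48 was not called. Of the 75 genes that passed the filter, 39 were lower, none was higher (nor at an unadjusted p under 0.05) and 36 did not pass the test, beside 21.7% lower and 25.4% higher among all 11211 genes tested. The median log2 difference of the family was -0.59, against -0.03 for all genes, and 16 members did not overlap between groups, beside 22.5% of all genes. The rows that failed the filter were both rows of MRPL33, which were at 0 counts in N conceptuses. Each of these rows spans 198 bases, equal to its exon length, so neither holds an intron. MRPL33 had counts in every N conceptus of E2. Whether the E1 rows measure the same gene was not tested, and their 0 counts are not read as absence of MRPL33. The summed level of the family was 4285 to 6130 CPM in N and 2690 to 4207 CPM in EM, with no overlap.

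MRPL48 in E1 conceptuses was at 24.2, 30.7 and 36.5 CPM in the lowest, median and highest N library. The 4 EM libraries were at 27.5 CPM (S2), 19.5 CPM (S3), 92.3 CPM (S4) and 16.3 CPM (S5), and the values of S4 and S5 rested on 23 and 1 counts. S4 lay above all N libraries, S3 and S5 below all of them, and S2 among them. The log2 difference was 0.09 (SE 0.31, adjusted p = 0.844), the fifth from the highest of the 75. Without S4 it was -0.42 (adjusted p = 0.0689), and without S4 and S5 it was -0.45 (adjusted p = 0.0577). An exact two-sided permutation test on log2(CPM + 1) over all 12 libraries gave a difference of -0.0055 and p = 0.893, where the smallest p possible was 0.00404. Whether the difference of MRPL48 itself differed between E1 and E2 was not tested.

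MRPS5 had the smallest p-value of the family in E1. Its 4 EM libraries were at 47.01, 32.6, 40.1 and 16.3 CPM, in the order S2, S3, S4 and S5, and its N libraries at 58.7, 65.4 and 75.1 CPM at the lowest, the median and the highest (log2 difference -0.79, SE 0.17, adjusted p = 0.0015). MRPL16, a large subunit protein that lies near the catalytic centre in bacterial ribosomes, was at 84.9, 55.1, 72.2 and 32.6 CPM in EM and at 102.3, 124.2 and 162 CPM in N (-0.87, adjusted p = 0.00157). MRPS25 was at 32.2, 18.2, 40.1 and 32.6 CPM in EM and at 41.7, 58.5 and 87.4 CPM in N (-1.17, SE 0.26, adjusted p = 0.00216). None of these overlapped between groups, which held for 16 of 75 members beside 22.5% of all genes. In S5 a single count stands at 16.3 CPM, so its values here and below rest on very few counts. S4 was shallow as well.

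MRPL4 (log2 difference -0.76, adjusted p = 0.00347) and MRPS18A (-0.76, adjusted p = 0.00362) separated the E1 groups too, and MRPS28 (-0.82, adjusted p = 0.00366) overlapped through S5. The most negative differences beside MRPS25 were those of MRPL23 (-1.19, adjusted p = 0.00632), MRPS2 (-1.10, adjusted p = 0.00466) and MRPS24 (-0.96, adjusted p = 0.00568). MRPL23 lies at the tunnel exit, and MRPS2 and MRPS24 are small subunit proteins. Of the named central protuberance genes, MRPL38 (-0.84, adjusted p = 0.0166), MRPL40 (-0.87, adjusted p = 0.0296) and MRPL46 (-0.72, adjusted p = 0.0296) were lower. Of these named genes, 3 of the 4 tested in E1 were called.

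The E1 count of lower members rested on EM library S3. Without S3, 8 of 75 members were lower, beside 9.82% of all genes, and the family median was -0.42. S3 had an erythrocyte marker sum of 53142 CPM and the highest leukocyte marker sum of the E1 EM conceptuses, 1894 CPM, and the part of these in the result was not tested. Without S4 and S5, 56 of 75 members were lower, beside 24.1% of all genes. Of 14 leukocyte markers tested in E1 conceptuses 13 were higher in EM, with a summed level of 751 to 1894 CPM in EM and 25.5 to 130 CPM in N, and of 15 trophectoderm markers 12 were lower, at 6863 to 24734 CPM in EM and 27809 to 53204 CPM in N.

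Between the experiments, 69 of the 75 genes had the same sign of difference (92%), compared with 83.96% of the 9745 genes with 1 row in both. Members lower in both were 36 (48%), against 20.5% of all these genes, while 22 were lower in E2 alone, 3 in E1 alone and 14 in neither. No member was called in opposite directions. Across the 75 genes the E2 and E1 differences correlated with r = 0.73, against 0.90 over all genes. Genes are not independent replicates, and the reads of each experiment were aligned to a different assembly.

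Other genes of mitochondrial gene expression were mostly lower where they passed the test in E2 conceptuses. Among all genes tested there, 31.8% were lower and 35.3% were higher. Ribosomal proteins with other names were lower in 3 of 5 cases, among them DAP3 (log2 difference -1.70) and PTCD3 (-1.20), both of the small subunit. Of 23 assembly factors 13 were lower and 1 higher, with MPV17L2, a factor of the large subunit, at -2.55 and RPUSD4, a pseudouridine synthase, at -1.45, while NGRN was higher. Of 20 mitochondrial aminoacyl-tRNA synthetases, which charge the tRNAs, 11 were lower and none higher, with CARS2 at -1.50 and EARS2 at -1.24.

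Of 13 mitochondrial translation factors 7 were lower, with the elongation factors GFM1 at -0.74 and TSFM at -1.03, and 2 were higher, the release factor gene MTRF1L and GUF1. Of 12 genes for the replication and transcription of mitochondrial DNA 5 were lower, with the DNA polymerase POLG at -1.25 and the RNA polymerase POLRMT at -1.72, and 2 higher, MTERF2 and MTERF1. Of 9 regulators of mitochondrial biogenesis 4 were lower, with PPRC1 at -1.83 and ESRRA at -0.93, and 1 higher. These last 2 lists are short, and their shares of lower genes were not far above the 31.8% of all genes in E2. In E1, where 21.7% of all genes were lower, the lower genes were 4 of 5 other-named subunits, 4 of 18 assembly factors, 2 of 19 synthetases, 2 of 13 translation factors and 3 of 10 DNA expression genes. The shares of assembly factors, synthetases and translation factors were near or below that of all genes. Counts of higher genes in these lists, and counts for the biogenesis regulators, are not given for E1.

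The mRNAs encoded by mitochondrial DNA went the other way. Of 13 such genes 11 were higher and none lower in EM conceptuses of E2 (median 1.77 on the log2 scale), with ND1 at 2.88 and ND2 at 2.53, both subunits of respiratory complex I. In E1 all 6 that were tested were higher (median 2.76). Of 84 cytosolic ribosomal protein genes tested in E2 35 were lower and 1, RPS27L, was higher (median -0.61), beside 31.8% lower among all genes. In E1 16 of 84 were lower and 3 higher, a share of lower genes below the 21.7% of all genes. All 20 proliferation genes were lower in E2 (median -2.59), among them MCM6 and TYMS, and all 20 in E1 (median -1.15).

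**Figure D4:**
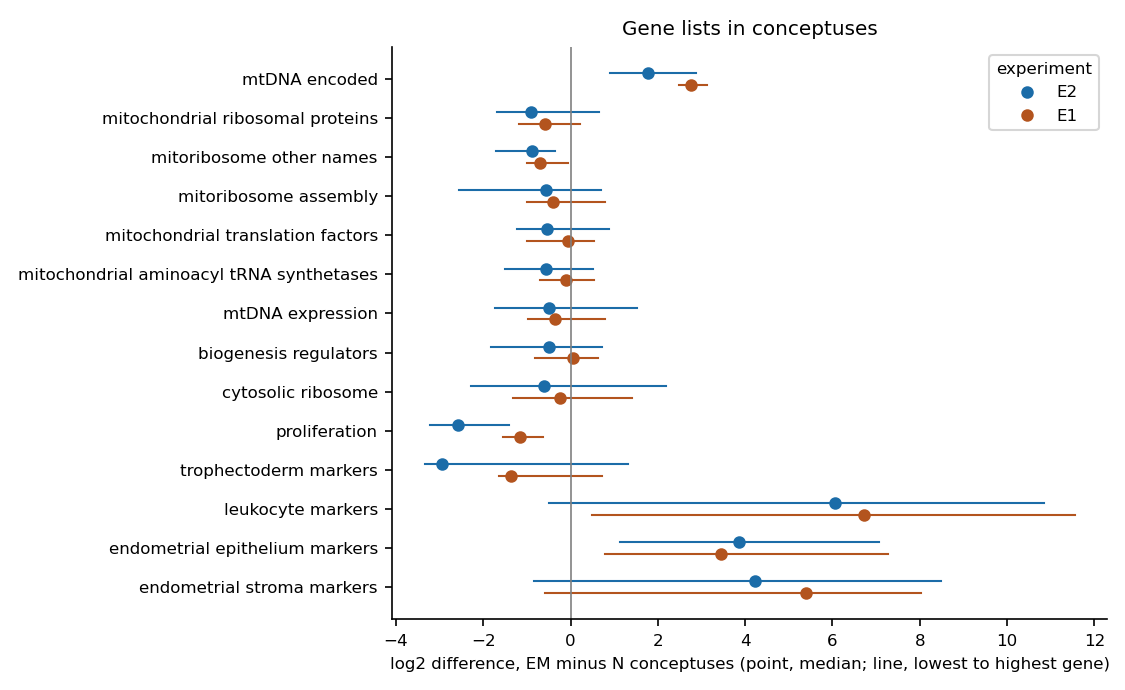
Log2 difference between EM and N conceptuses for gene lists in E2 and E1 (point, median of the list; line, lowest to highest gene). The mitochondrial ribosomal proteins have medians of -0.91 and -0.59, the genes encoded by mitochondrial DNA 1.77 and 2.76, and the proliferation genes -2.59 and -1.15.

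In the maternal tissues edgeR called no member between EM and N. In E2 no member was called in endometrium, corpus luteum or PBMC, where 0.0%, 0.00568% and 0.0% of all genes were called, and 0, 2 and 0 members had an unadjusted p under 0.05, beside 7.96%, 6.83% and 2.1% of all genes. In E1 no member was called in endometrium or PBMC, where 1.38% and 0.0% of all genes were called, with 13 of 75 and 0 members at an unadjusted p under 0.05, beside 13.5% and 6.59% of all genes. DESeq2 called none in these 5 comparisons apart from E1 endometrium, where MRPS36 (log2 difference 1.66) and MRPS12 (-0.54) were called. MRPS36 in E1 endometrium was at 32.8 to 171 CPM in EM and 16.7 to 64.1 CPM in N, with an edgeR adjusted p of 0.0514. MRPL48 differed between EM and N by 0.16 in endometrium (SE 0.21), 0.37 in corpus luteum (SE 0.22) and 0.07 in PBMC (SE 0.14) of E2, and by -0.09 in endometrium (SE 0.19) and -0.10 in PBMC (SE 0.27) of E1, none of them called.

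The difference between EM and N was compared between tissues directly in E2. The conceptus difference less the endometrium difference was negative and called for 60 members, less the corpus luteum difference for 62 and less the PBMC difference for 62, beside 24.2%, 25.6% and 22.7% of all genes. For MRPL48 these differences of differences were -1.23 (adjusted p = 0.000124), -1.47 (adjusted p = 8.22e-06) and -1.18 (adjusted p = 0.000239). The 3 comparisons share the conceptus libraries.

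Between N and NP cows edgeR called members in E1 endometrium only. There MRPL47, MRPS18B and MRPS14 were higher in N, 3 of 75 members, beside 2.14% of all genes called higher and 2.52% called in either direction. MRPL47, a large subunit protein with a bacterial counterpart, was at 35.8, 48.5 and 66.9 CPM in N and at 25.97, 30.7 and 41.03 CPM in NP (log2 difference 0.66, SE 0.14, adjusted p = 0.0115). MRPS18B (0.48, adjusted p = 0.041) and MRPS14 (0.45, adjusted p = 0.0433) are small subunit proteins. All 3 overlapped between groups. With total counts none was called, and with any of the 4 EM libraries left out of the common fit only MRPL47 was. At an unadjusted p under 0.05 there were 17 of 75 members, all higher, beside 16.3% of all genes in either direction. By sign, 58 members were positive and 17 negative, where 55.8% of all genes were negative. The family median was 0.13, against -0.04 for all genes, and this shift was not tested.

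In E2 endometrium no member was called between N and NP by edgeR, where 1.41% of all genes were called and 6 of 78 members had an unadjusted p under 0.05, beside 9.38% of all genes. By sign, 71 members were positive and 7 negative there, where 48.2% of all genes were negative. The family median was 0.17, against 0.01 for all genes, and this shift was not tested either. MRPL47 had the largest difference of the family there as well, with 25.7, 30.8 and 71.1 CPM in N and 20.98, 24.6 and 28.9 CPM in NP (0.61, SE 0.18, adjusted p = 0.114), and DESeq2 called it alone (0.60, adjusted p = 0.0434). In corpus luteum and PBMC of E2 and in PBMC of E1 no member was called between N and NP, and 0.0% of all genes in each. Members at an unadjusted p under 0.05 numbered 0, 0 and 2, beside 2.22%, 4.55% and 5.24% of all genes, and DESeq2 called none. Leaving NP library S47 out of E1 PBMC also gave none. MRPL48 differed between N and NP by between -0.17 and 0.27 in the 5 comparisons, none called.

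Among tissues of the N cows, the family was highest in the conceptus. In E2, where 9 libraries of each tissue were scaled together, 76 of 78 members were higher in conceptus than in endometrium (median log2 difference 2.36, all genes -0.60), 75 than in corpus luteum (1.63, all genes -0.37) and 76 than in PBMC (2.35, all genes 0.11). Of all genes, 35%, 35% and 44% were higher in these comparisons. Each conceptus library lay above each maternal library for 53 members, beside 14.4% of all genes. The summed level was 4366, 6283 and 9548 CPM in the lowest, median and highest conceptus, 1731, 1972 and 3610 CPM in corpus luteum, 1134, 1273 and 2112 CPM in endometrium and 1162, 1211 and 1377 CPM in PBMC.

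Total counts in place of scaling factors moved the medians of all genes to -1.64, -1.07 and -0.77 and those of the family to 1.29, 0.92 and 1.40. Then 68, 67 and 74 members were higher, beside 20.3%, 23.3% and 30.6% of all genes, and 2 were lower in each comparison, beside 67.05%, 59.96% and 53.7%.

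**Figure D5:**
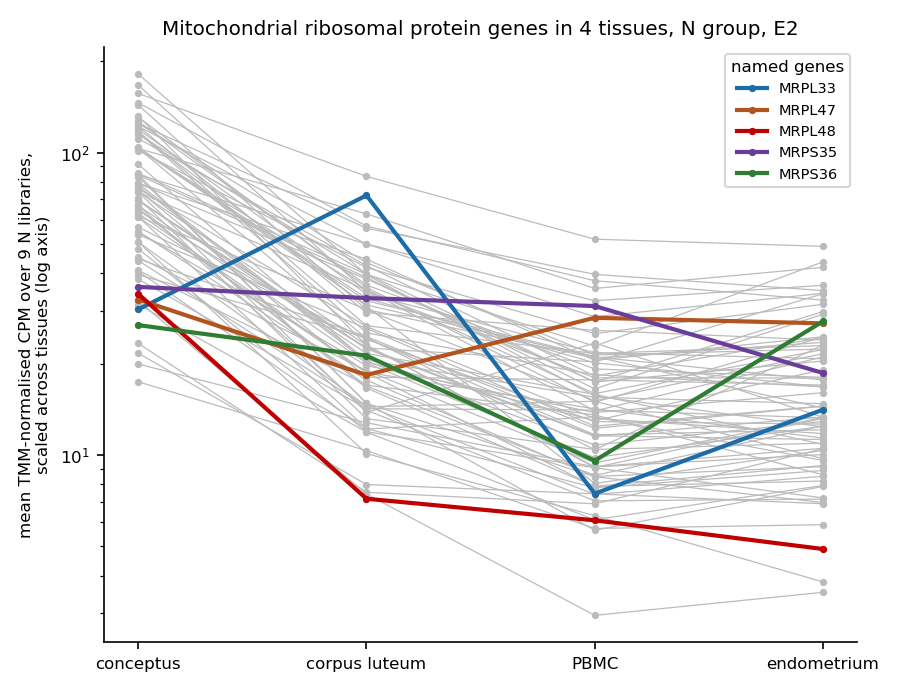
Mean level of each of the 78 genes in the 4 tissues of N cows in E2 (TMM-normalised CPM scaled across tissues, log axis), each line a gene. MRPL48 falls from 34.1 CPM in conceptus to 4.90 CPM in endometrium, while MRPL33 is highest in corpus luteum and MRPS36, MRPS35 and MRPL47 change little between conceptus and at least 1 maternal tissue.

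MRPL48 was at 23.2, 29.7 and 58.6 CPM in the lowest, median and highest N conceptus of E2 on this scale. It was at 5.53, 6.59 and 11.5 CPM in corpus luteum, 4.92, 6.09 and 7.40 CPM in PBMC and 3.85, 4.602 and 7.35 CPM in endometrium. The conceptus lay above all others, and neighbouring maternal tissues overlapped. Its log2 difference was 2.80 against endometrium (adjusted p = 2.75e-17), 2.25 against corpus luteum and 2.48 against PBMC, rank 16, 10 and 32 of 78 by size.

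The largest mean excess in conceptus over the 3 maternal tissues was that of MRPL36 (3.26 on the log2 scale), followed by MRPL55 (3.23), MRPL12 (3.20), MRPS30 (3.14) and MRPL24 (3.08). MRPL36 was at 53.97, 82.5 and 152 CPM in the lowest, median and highest conceptus, and its highest maternal library, of corpus luteum, was at 29.6 CPM. All 5 are large subunit proteins. MRPL33 was the exception in corpus luteum, where its level of 46.01, 58.9 and 166 CPM exceeded the 18.1, 25.2 and 47.7 CPM of conceptus (log2 difference -1.25), 1 of 78 members lower in conceptus beside 46.7% of all genes. It is among the members with annotated copies in E2, and the part of shared reads was not tested. MRPS35, MRPL47 and MRPS36 were also not higher in all 3 comparisons. MRPS36 reached 120 CPM in 1 endometrium library, against a median of 15.6 CPM there.

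The genes encoded by mitochondrial DNA did not keep this order. All 13 were higher in conceptus than in endometrium, but none was higher than in corpus luteum and 8 were lower (median log2 difference -0.73). Of 84 cytosolic ribosomal protein genes 81 were higher in conceptus than in each of the 3 maternal tissues, and all 20 proliferation genes were.

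In E1, 72 of 75 members were higher in N conceptus than in endometrium (median log2 difference 2.01, all genes -0.39), beside 34.7% of all genes. Against PBMC 53 were higher, beside 36.9% of all genes, and 4 were lower, beside 38.3% (median 0.74, all genes -0.01). The 4 were MRPS6 (-2.10), MRPS12 (-0.68), MRPL57 (-0.39) and MRPL49 (-0.31). MRPL48 was higher by 2.43 against endometrium and by 0.71 against PBMC. Levels per length of exon could be given for E1 alone. MRPL48 was at 38.7 ± 5.24 CPM per kilobase in N conceptuses (SD, n = 8), rank 64 of 77 rows whose median was 73.9, so it was among the less abundant members. The highest was MRPL27 (285 CPM per kilobase), and MRPL40 was at 135, MRPL38 at 77.5 and MRPL46 at 56.9 CPM per kilobase. MRPL48 ranked 70 in endometrium (7.17) and 62 in PBMC (23.5).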

How the data were processed

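Gene counts were deposited by the authors as raw counts with no normalization, in E2 as a table for each group of each tissue. Libraries were made with a stranded mRNA kit, reads were paired-end and aligned to UMD3.1 in E1, and single-end and aligned to ARS-UCD 1.2 in E2. The sources used here do not give the counting program, and the labels name edgeR and DESeq2 without versions. Of 129 samples 127 were used, and 2 had no group in the labels. Per-sample columns left unused numbered 0. Within groups, 390 pairs of libraries were compared and none agreed within sampling noise. The paper describes a conceptus from each cow, with as many cows as there are E2 conceptus libraries. For E1 and for the maternal tissues nothing says that libraries of a group come from separate cows. The p-values measure the spread between these libraries.

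Each tissue and experiment was fitted with all its groups (edgeR 4.0.16, genes kept by filterByExpr at a minimum count of 10, TMM scaling, quasi-likelihood F test, Benjamini-Hochberg adjustment over all genes tested, threshold 0.05). SE is the log2 difference divided by the square root of F. Tissues were compared in a joint fit per experiment. Alternatives were RLE factors, total counts, other filters, DESeq2 1.42.0 and leaving out libraries. The script was tested on simulated data in which few genes changed, as many up as down. That setting is unlike the E2 conceptus comparison, where 67.1% of all genes were called, so it does not test the scaling there. Sums of a list are sums of CPM.

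The members, gene lists and marker lists were chosen with earlier results of these data known. Named genes were MRPL48, the central protuberance, in the conceptus comparisons up to 6 called members by p-value and 4 by size in each direction, among tissues up to 5 by size, every called maternal member, and the extremes of the correlation with MRPL48. Genes outside this rule were named after their values were seen. These are MRPL32, MRPL33, MRPL19, MRPS36, MRPS12, MRPS35, MRPL47 in E2, and the members lower in conceptus than PBMC.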

Additional observations from a re-analysis of the deposited data

Results flagged for a closer look

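Over 36 groups of libraries (the level of MRPL48 and the summed level of the family), a library stood far from the rest of its group in 9, where chance gives about 1 in 20. For MRPL48 these were EM conceptus S4 of E1 at 92.3 CPM (next 27.5 CPM, from 23 counts), N corpus luteum S129 of E2 at 11.6 CPM (next 8.26 CPM), NP endometrium S31 of E1 at 18.4 CPM (next 10.7 CPM), N endometrium S72 of E2 at 10.02 CPM (next 7.57 CPM) and NP PBMC S44 of E1 at 14.9 CPM (next 11.4 CPM).

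For the summed level these were N conceptus S56 of E2 at 6740 CPM (next 4940 CPM), N corpus luteum S129 of E2 at 3627 CPM (next 2111 CPM), N endometrium S72 of E2 at 2878 CPM (next 1832 CPM) and NP PBMC S44 of E1 at 2454 CPM (next 2129 CPM). S129, S72 and S44 stood apart on both measures.

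The difference between EM and N differed between conceptus and each maternal tissue of E2 by the interaction test. MRPL48 differed by -1.23 from endometrium, -1.47 from corpus luteum and -1.18 from PBMC, and 60, 62 and 62 members had a called negative difference of differences.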

How the results depend on the processing

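The counts and MRPL48 values that answer the comparisons kept their direction and their side of the threshold in 134 results under an alternative setting, and 16 moved or reversed. In E2 conceptuses 36 members were called in either direction with total counts and 39 with at least 10 counts in every library. As first given there were 60, all lower, beside 67.1% of all genes called in either direction. MRPL19, MRPL32 and MRPL33 were called higher under both alternatives. The share of all genes with at least 10 counts in every library is not given here. The difference of differences, with alternatives chosen after seeing the data, called 39, 35 and 36 members with total counts. With TMM scaling these were 60, 62 and 62. Shares of all genes with total counts are not given for this comparison. In E1 conceptuses leaving out 1 library gave 8 to 48 called members, all lower, beside 9.82 to 24.5% of all genes lower. MRPL48 ranged there from -0.42 to 0.43. It was -0.0073 with no filter beyond 1 count and -0.45 without S4 and S5, and the single-value test gave 0.13 with RLE factors. The filter of 10 counts in every library left no member there and gave no value. DESeq2 called 1 member between N and NP in E2 endometrium, 5 in E1 endometrium and 2 between EM and N in E1 endometrium. Between N and NP in E1 endometrium, edgeR called 0 with total counts and 1 with any 1 of the EM libraries left out. Between EM and N there, edgeR called 1 without EM S15 and 0 without each of the other EM libraries. MRPL48 turned to -0.024 with total counts and -0.0027 without the filter between N and NP in E2 PBMC, and to 0.0048 with total counts between EM and N in E1 PBMC, where leaving out 1 EM library gave -0.37 to 0.10 (the latter without S35). The cause was not tested. Depth limits E1 conceptuses S4 and S5, where a member may rest on few counts. No paired analysis was possible because the groups share fewer than 2 replicate numbers (only the column name S77, in E2 endometrium EM and N) and the libraries of 1 cow are not identified.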
